A study of Homo sapiens with 8 samples.

Results

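A set of 38 protein-coding genes of the 4 human HOX clusters was examined in ChIP-Seq peak lists from PC3 cells, a line derived from a bone metastasis of human prostate cancer. The genes were chosen from those that the GENCODE annotation of hg19 names HOXA, HOXB, HOXC or HOXD followed by digits, and not every such gene was used. They are 11 HOXA, 9 HOXB, 9 HOXC and 9 HOXD genes of 19812 protein-coding genes with an annotated transcription start site (TSS). Peaks were those touching a cluster or the 50 kb on either side of it, and 234 of the 249711 peaks and regions of the 6 lists did. K/D cells carry a stable shRNA against DAXX. WT cells are called wild type in the sample labels and control shRNA cells in the study's description, so the reference may itself be a transduced line. Each cell line was immunoprecipitated with antibodies to DAXX, DNMT1 and H3(Lys4), and the inputs were used by the authors for peak calling. The labels write the last antibody as DMHH3(Lys4), and the methylation state of lysine 4 that it binds is not given in the sources used here. All 8 samples are single libraries of their group, so no difference between K/D and WT has a replicate check, no test was made between them, and every interval given covers counting error only. Peak lists hold no expression values, so neither the depth of the knockdown nor the identity of the cells could be checked against a marker level.

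HOX genes encode homeodomain transcription factors that assign position along the body axis. They lie in dense clusters in which gene order follows the order of expression, with paralogue group 1 at the anterior end and group 13 at the posterior end. Trithorax complexes, which methylate H3 lysine 4, and Polycomb complexes hold active and silent HOX genes in those states. Posterior HOX genes are known for roles in the genital tract and prostate. DAXX is a histone H3.3 chaperone and transcriptional corepressor, and DNMT1 copies DNA methylation after replication.

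The clusters lay within chr7:27082612-27289710 (HOXA), chr17:46555888-46760934 (HOXB), chr12:54282615-54499814 (HOXC) and chr2:176907449-177105635 (HOXD) on hg19, flanks included. Libraries held between 12050101 and 18705056 tags. The share of tags inside peaks was 6.83% in K/D DAXX, against 15.8% in WT DAXX. It was 0.0663% in K/D DNMT1, against 0.263% in WT DNMT1, and 15.1% in K/D H3(Lys4), against 23.9% in WT H3(Lys4). These shares move with the cell line in every comparison given here, and their part in the results was not tested. A peak that is not called is not shown to be empty.

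A few peak sequences from the plus strand of hg19 carry the patterns described further on. In the first 2, from WT cells near HOXA10, the DAXX peak and the DNMT1 peak of the HOXA cluster share 45 bp, and capitals mark the nuclear receptor half-site AGGTCA.
WT DAXX, HOXA10 intron, chr7:27214999-27215171: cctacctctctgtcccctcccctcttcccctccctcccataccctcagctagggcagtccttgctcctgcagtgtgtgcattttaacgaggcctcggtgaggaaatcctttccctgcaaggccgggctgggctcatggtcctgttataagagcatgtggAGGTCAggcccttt
WT DNMT1, HOXA10 intron, chr7:27214915-27215043: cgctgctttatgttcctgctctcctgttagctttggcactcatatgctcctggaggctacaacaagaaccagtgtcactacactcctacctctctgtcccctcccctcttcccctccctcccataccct
The next, from K/D cells at HOXD11, lies under a DAXX peak of both cell lines, and capitals mark in order the AP-1 site TGACTCA, the posterior HOX motif TTTACGA, the half-site AGGTCA and a further TGACTCA.
K/D DAXX, HOXD11 intron, chr2:176969052-176969222: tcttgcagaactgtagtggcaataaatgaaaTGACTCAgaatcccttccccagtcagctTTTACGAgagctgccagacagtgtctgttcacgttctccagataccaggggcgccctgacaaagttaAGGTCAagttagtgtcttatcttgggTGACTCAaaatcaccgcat
The remaining sequences lie under DAXX peaks called in K/D cells and not in WT cells. Capitals mark the posterior HOX motifs TTTATGG and TTTACGA on either strand, and in the HOXA5 peak also the half-site (TGACCT).
K/D DAXX, HOXA5 promoter, chr7:27183343-27183513: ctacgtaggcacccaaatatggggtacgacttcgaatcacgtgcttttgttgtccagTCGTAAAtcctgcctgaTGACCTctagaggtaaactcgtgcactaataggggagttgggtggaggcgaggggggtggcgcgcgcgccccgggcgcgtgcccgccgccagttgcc
K/D DAXX, HOXC5 intron, chr12:54427346-54427516: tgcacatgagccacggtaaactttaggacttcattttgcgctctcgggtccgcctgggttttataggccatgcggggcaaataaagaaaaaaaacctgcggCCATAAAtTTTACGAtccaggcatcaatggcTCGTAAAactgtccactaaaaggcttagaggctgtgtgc
K/D DAXX, upstream of HOXD4, chr2:177010933-177011103: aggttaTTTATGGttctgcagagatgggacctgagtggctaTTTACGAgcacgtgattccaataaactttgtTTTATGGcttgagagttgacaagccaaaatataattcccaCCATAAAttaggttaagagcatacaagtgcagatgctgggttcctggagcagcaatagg
K/D DAXX, HOXC9 intron, chr12:54395753-54395923: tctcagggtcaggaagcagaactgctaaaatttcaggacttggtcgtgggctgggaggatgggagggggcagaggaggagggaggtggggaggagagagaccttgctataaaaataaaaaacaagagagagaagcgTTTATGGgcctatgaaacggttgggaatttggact

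DAXX peaks were denser over the 4 HOX clusters pooled than over the whole lists in both cell lines. The windows held 40 K/D DAXX peaks, or 48.3 per Mb (exact Poisson 95% interval 34.5 to 65.8), against 43 WT DAXX peaks, or 52.0 per Mb (37.6 to 70.0). The whole lists held 15.0 and 20.9 peaks per Mb in K/D and WT. HOXA held the most, with 15 K/D and 22 WT peaks. HOXB had 10 peaks in each line, HOXC 9 in K/D and 7 in WT, and HOXD 6 in K/D and 4 in WT. In WT HOXD the DAXX density, 20.18 per Mb (5.499 to 51.68), was not above the 20.91 per Mb of the WT list. The DAXX intervals of WT HOXC (12.96 to 66.4 per Mb) and K/D HOXD (11.11 to 65.89 per Mb) also include their lists' densities. The DAXX intervals of the other single clusters lie above theirs. Between the outermost HOX genes, without the flanks, there were 29 K/D and 27 WT DAXX peaks. H3(Lys4) regions numbered 79 in K/D, or 95.5 per Mb (75.6 to 119), and 70 in WT, or 84.6 per Mb (65.9 to 107). The whole lists held 25.25 and 25.21 per Mb. For K/D and WT there were 31 and 24 in HOXA, 25 and 22 in HOXB, 14 and 14 in HOXC, and 9 and 10 in HOXD. The H3(Lys4) intervals of HOXD, 20.8 to 86.2 per Mb in K/D and 24.2 to 92.8 in WT, include the list's density. DNMT1 peaks numbered 0 in K/D (exact Poisson 95% interval up to 4.46 per Mb, whole list 0.208 per Mb) and 2 in WT. The WT density was 2.42 per Mb (0.293 to 8.73), and this interval includes the 0.782 per Mb of the whole WT list. A count of 0 allows up to 3 peaks, or 0.504% of the 595 K/D DNMT1 peaks.

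Most HOX genes had a DAXX peak nearby. A K/D DAXX peak centre lay within 10 kb of a TSS of 30 of the 38 genes, against 41.8% of all protein-coding genes. For WT DAXX the count was 27 of 38, against 51.2%. Neighbouring HOX genes share peaks at this distance, so the genes are not independent. The median distance was 5626 bp in K/D (all protein-coding genes 15495 bp) and 5589 bp in WT (9220 bp). The lower quartile was 2971 bp in K/D (all protein-coding genes 2257 bp) and 2015 bp in WT (918 bp). At that short distance HOX genes were therefore not nearer to a peak than all genes. A peak was near in both lines for 24 genes, in K/D alone for 6 genes, among them HOXC5, HOXD3 and HOXD4, and in WT alone for HOXB1, HOXC4 and HOXD13. HOXB2, HOXC12, HOXC13, HOXD1 and HOXD9 had none in either. In HOXD the counts were 6 of 9 and 4 of 9 for K/D and WT.

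In each cell line, most DAXX peaks of the clusters were not called in the other line. For WT this also held over the whole list. Of the 40 K/D peaks, 18 (45.0%, exact binomial 95% interval 29.3 to 61.5%) had a WT peak with at least 1 bp in common, against 67.4% of the whole K/D list. Of the 43 WT peaks, 18 (41.9%, 27.0 to 57.9%) had a K/D peak, against 48.4% of the whole WT list. Early places in the list are shared more often, and places are given here as a percentage of the list in its deposited order. HOMER writes the strongest peak first, but the deposited scores hold 1 value, so an order by strength could not be checked. The whole list's shares, averaged over the list bins (10% of a list each) in which the HOX peaks lay, were 67.3% for K/D and 49.8% for WT, so the K/D interval lies below its comparison value and the WT interval includes it. By cluster, 9 of 15 K/D peaks were shared in HOXA, 4 of 10 in HOXB, 3 of 9 in HOXC and 2 of 6 in HOXD. Each single cluster's interval includes the 67.4% of the K/D list. HOXA had 6 peaks in K/D alone and 13 in WT alone, HOXB 6 and 6, HOXC 6 and 4, and HOXD 4 and 2. The 22 peaks called in K/D alone had a median place of 70.1%, and the 25 called in WT alone a median of 47.9%. Of the first, 2 lay within 500 bp of a peak of the other line, and of the second, 3. The whole lists' shares at this distance were not computed.

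Of the 12 shared peaks that lay between the outermost genes of a cluster, 8 were nearest to a posterior gene. Between the outermost genes of each cluster, 8 of the 11 K/D peaks nearest to paralogue groups 9 to 13 were also called in WT (72.7%, 39.0 to 94.0%), against 4 of the 18 nearest to groups 1 to 8 (22.2%, 6.41 to 47.6%). Of the WT peaks, 8 of 15 at groups 9 to 13 were also called in K/D (53.3%, 26.6 to 78.7%), against 4 of 12 at groups 1 to 8 (33.3%, 9.93 to 65.1%). The intervals of the 2 gene classes overlap in both lists, and the difference between the classes was not tested. The whole lists' shares were 67.4% for K/D and 48.4% for WT. The K/D interval for groups 1 to 8 lies below its list's share, and the other intervals include theirs. Places in the list were not taken into account here. The shared posterior peaks lay at HOXA10, HOXA13, HOXC9, HOXC10, HOXC11 and HOXD11.

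HOXA13, which patterns the most posterior body and the limb ends, carried the earliest placed DAXX peak of the K/D clusters. It stood at 1.49% of the K/D list, against 2.90% of the WT list, in sequence annotated as untranslated, 3661 bp downstream of the TSS in K/D. HOXA10, a regulator of the female reproductive tract and of blood progenitors, had a shared pair. The peak 1111 bp downstream of its nearer TSS was at 14.8% in K/D and 18.0% in WT. The peak upstream of that TSS, by 1203 bp in K/D and 1146 bp in WT, was at 35.3% in K/D and 27.0% in WT. This upstream peak is the one printed above beside DNMT1. The WT DNMT1 peak, at 47.0% of its list and 1040 bp upstream of the same TSS, overlapped the WT DAXX peak and ended 13 bp short of the K/D DAXX peak. No K/D DNMT1 peak lay within the window. The other WT DNMT1 peak, chr17:46564796-46564924, lay 43412 bp beyond HOXB1 at 73.7% of its list, 607 bp from the nearest WT DAXX peak. Of all WT DNMT1 peaks, 8.59% had a K/D partner, against 0 of these 2 (exact binomial 95% interval up to 84.2%). In the list bins where these 2 peaks lay, the whole WT list's share averaged 2.01%. Since 1 peak is near several genes, a WT DNMT1 peak lay within 10 kb of 3 of the 38 HOX genes (HOXA9, HOXA10 and HOXA11), against 2.54% of all genes. In K/D it was 0 of 38, against 0.888%.

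**Figure D1:**
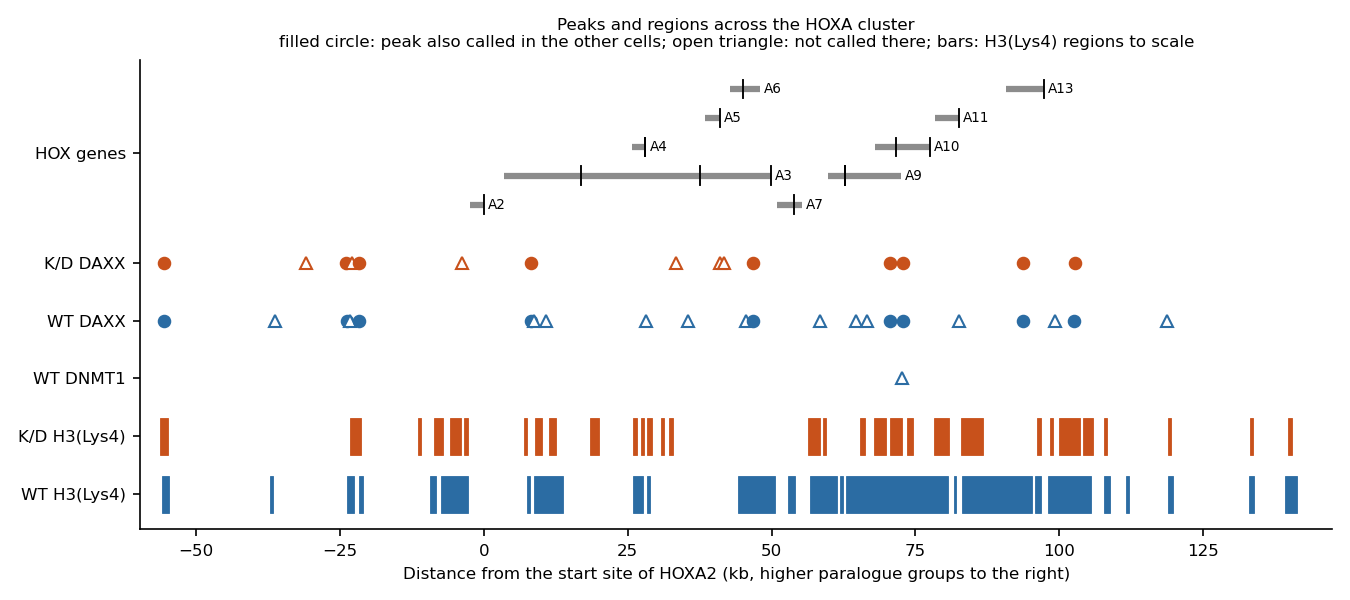
HOXA cluster by distance from the HOXA2 start site (x axis, kb), with the HOX genes described here as grey bars and their start sites as ticks, DAXX and DNMT1 peaks as points and H3(Lys4) regions as bars drawn to scale, K/D rows above WT rows. No K/D DNMT1 peak lay in the window; the 17767 bp WT H3(Lys4) region around HOXA10 is broken into 5 K/D regions.

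The rest of HOXA showed most of the WT-only peaks. The earliest placed peak of the anterior flank stood at 6.11% in K/D and 2.81% in WT, and was on an H3(Lys4) region in both lines. A peak in an intron of the long HOXA3 transcript, 8207 bp upstream of HOXA2 in K/D, was at 12.6% in K/D, against 39.1% in WT. HOXA6 had a shared peak 1609 bp upstream, at 37.3% in K/D and 40.6% in WT. In K/D alone, the first in order was a peak in an intron of HOXA3 at 10.5%, 4118 bp downstream of a HOXA3 TSS. It was followed by peaks 128 bp and 723 bp upstream of HOXA5, at 33.5% and 49.8%. HOXA5 encodes a factor of the anterior trunk and lung. Another K/D-only peak lay in the anterior flank, at 66.0%. In WT alone, the first was 3672 bp upstream of a HOXA9 TSS, at 24.7%, and 355 bp from the 5′ end of MIR196B, a microRNA gene of the cluster. The next lay in the anterior flank, at 32.9%, in the HOXA3 intron 8160 bp downstream of a TSS, at 42.2%, 458 bp upstream of HOXA6, at 45.4%, and at HOTTIP, the lncRNA at the posterior end, at 45.4%. Later WT-only peaks included those 39 bp upstream of HOXA11 (60.2%) and 175 bp upstream of HOXA4 (72.1%).

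HOXB differed in where its peaks lay. Inside the gene span there were 6 K/D peaks and 3 WT peaks, and in the flanks 4 and 7. The shared peaks were at 11.4% in K/D and 6.88% in WT (47377 bp beyond HOXB1 in K/D), at 15.0% and 18.6% (24890 bp), at 61.7% and 58.6% in an intron of HOXB3, and at 20.1% in K/D and 77.4% in WT in the interval between HOXB8 and HOXB9, 4334 bp upstream of HOXB8 in K/D. HOXB9 and HOXB8 are posterior trunk genes, and the annotated HOXB7 transcript also spans this site. The K/D-only peaks in the span were 1538 bp upstream, 2751 bp downstream and 3427 bp upstream of HOXB3 start sites, at 51.1%, 92.7% and 58.0%, and 4452 bp upstream of HOXB5, at 81.2%. The K/D-only flank peaks were at 48.0% and 87.8%. The 1 WT-only peak in the span was 2831 bp upstream of a HOXB3 TSS, at 35.7% and 424 bp from the K/D peak there. The WT-only flank peaks, between 8435 and 45836 bp beyond HOXB1, were at places between 13.5% and 81.1%.

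HOXC had its shared peaks at the posterior end. The promoter of HOXC10, a gene of the lumbar and hindlimb level, had a peak 103 bp upstream of the TSS at 6.17% in K/D, against 121 bp upstream and 8.29% in WT. It was on no H3(Lys4) region in either line. The peak 5046 bp upstream of HOXC9 was at 15.5% in K/D, against 38.1% in WT, and that 5928 bp downstream of HOXC11 was at 50.5% in K/D, against 35.5% in WT. The K/D-only peaks were 128 bp upstream of HOXC5 (35.8%), 597 bp downstream of its TSS (50.6%) and 303 bp from the 5′ end of MIR615, 30 bp (50.6%) and 1893 bp (75.2%) downstream of HOXC9 start sites, inside the lncRNA gene HOTAIR (91.9%), and in the flank 28933 bp from HOXC4 (91.9%). The WT-only peaks were 115 bp upstream of the outer HOXC4 TSS, in the HOXC6 gene (93.7%), in a coding exon of HOXC10 (63.7%), 5115 bp downstream of HOXC11 (51.5%) and in the flank 14744 bp from HOXC4 (42.6%).

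HOXD held 2 shared peaks, both at the limb and genital genes HOXD10 and HOXD11. The peak in the HOXD11 transcript, 2871 bp upstream of its TSS in K/D, stood at 6.85% in K/D, against 41.7% in WT. The peak 3401 bp downstream of that TSS, in an intron of HOXD10, was at 63.0% in K/D, against 91.5% in WT. The 4 K/D-only peaks all lay on the anterior side, 1767 and 11051 bp downstream of HOXD3 start sites (94.1% and 77.4%), 5260 bp upstream of HOXD4 (59.1%) and 6965 bp downstream of HOXD8 (83.0%). The WT-only peaks were 2072 bp upstream of HOXD12 (46.6%) and 10579 bp downstream of HOXD8 (86.6%).

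**Figure D2:**
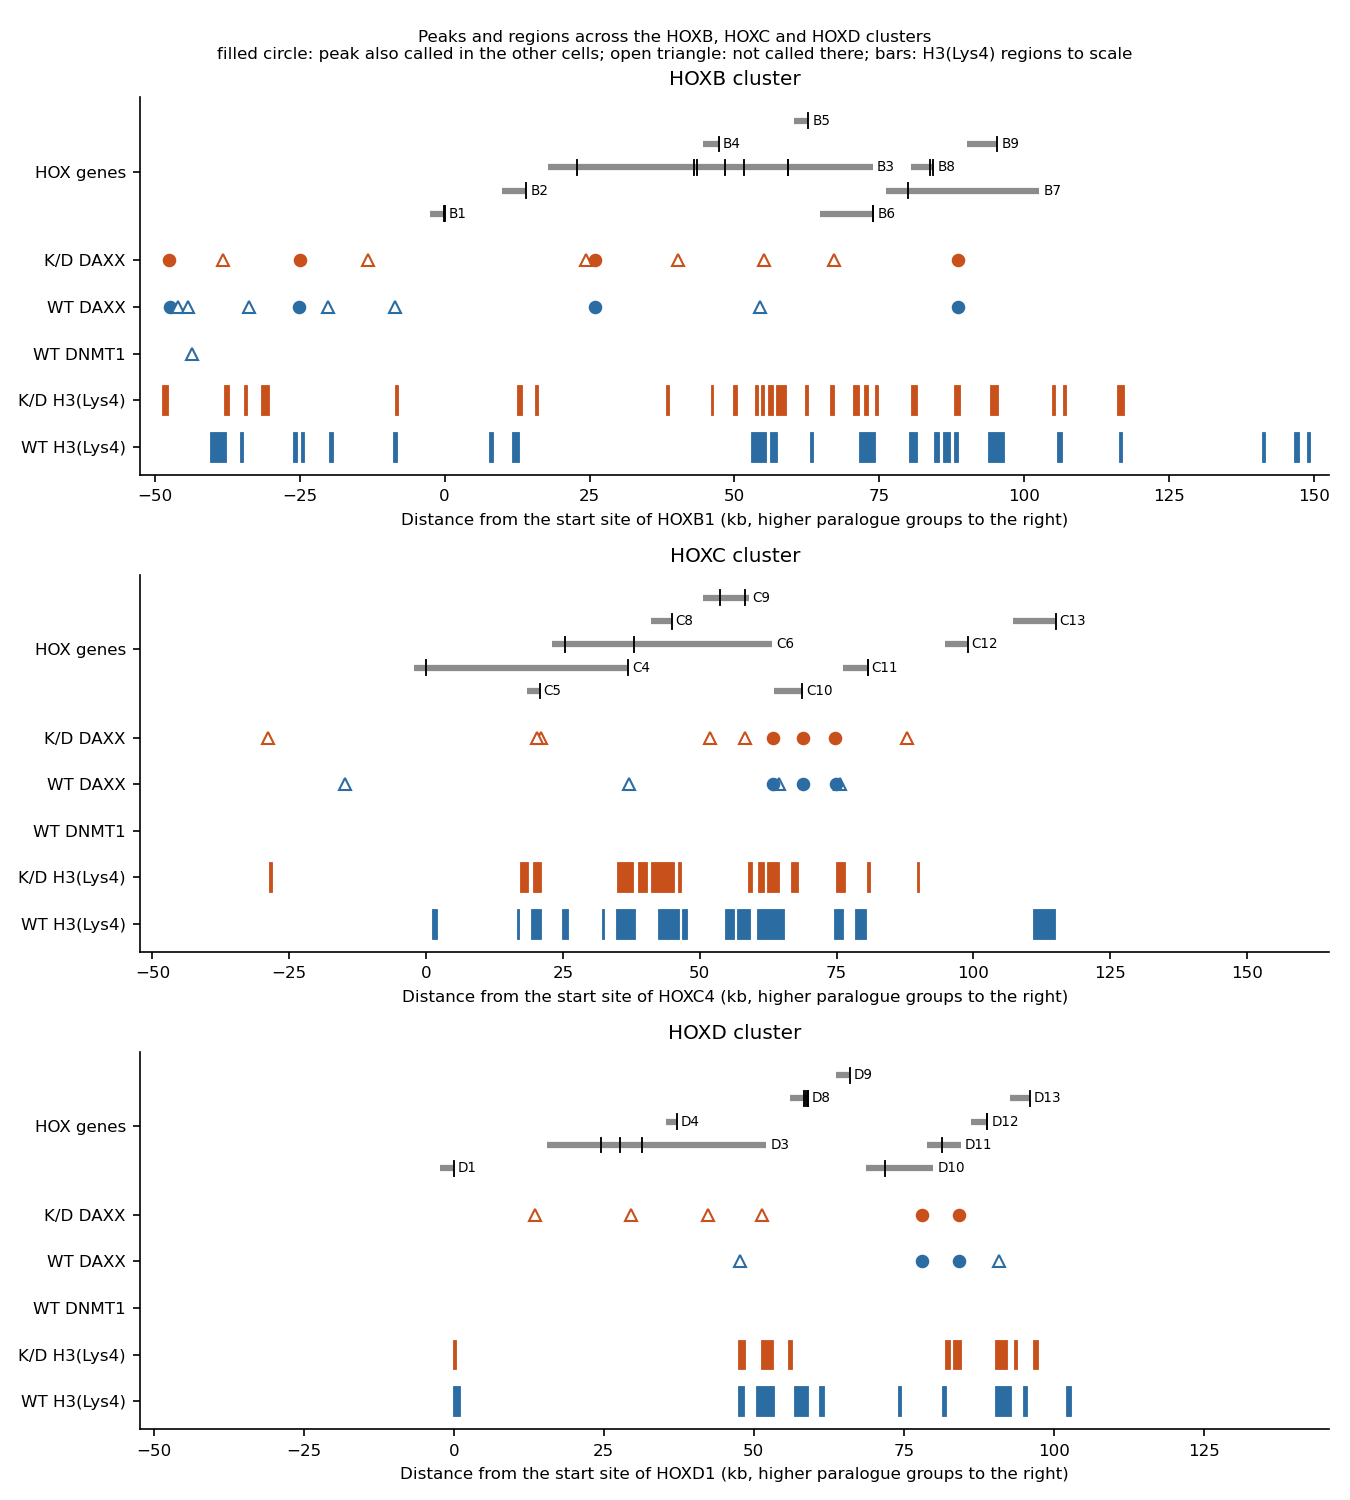
HOXB, HOXC and HOXD clusters from the start site of their first gene (x axis, kb), drawn as for HOXA, K/D rows above WT rows. The 4 HOXD peaks called in K/D alone lie to the left of the shared pair at HOXD10 and HOXD11.

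The K/D place of the shared HOX peaks was earlier than their WT place in 10 of 18 (55.6%, 30.8 to 78.5%) and later in 8, with a median shift of -1.76 percentage points. Over all 28901 shared WT peaks it was earlier in 33.4%, which lies inside that interval, with a median shift of 3.86. The earlier placed ones included the HOXB8, HOXD11, HOXD10, HOXA3 and HOXC9 peaks given above. A place is relative to each list's own length and does not measure occupancy.

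**Figure D3:**
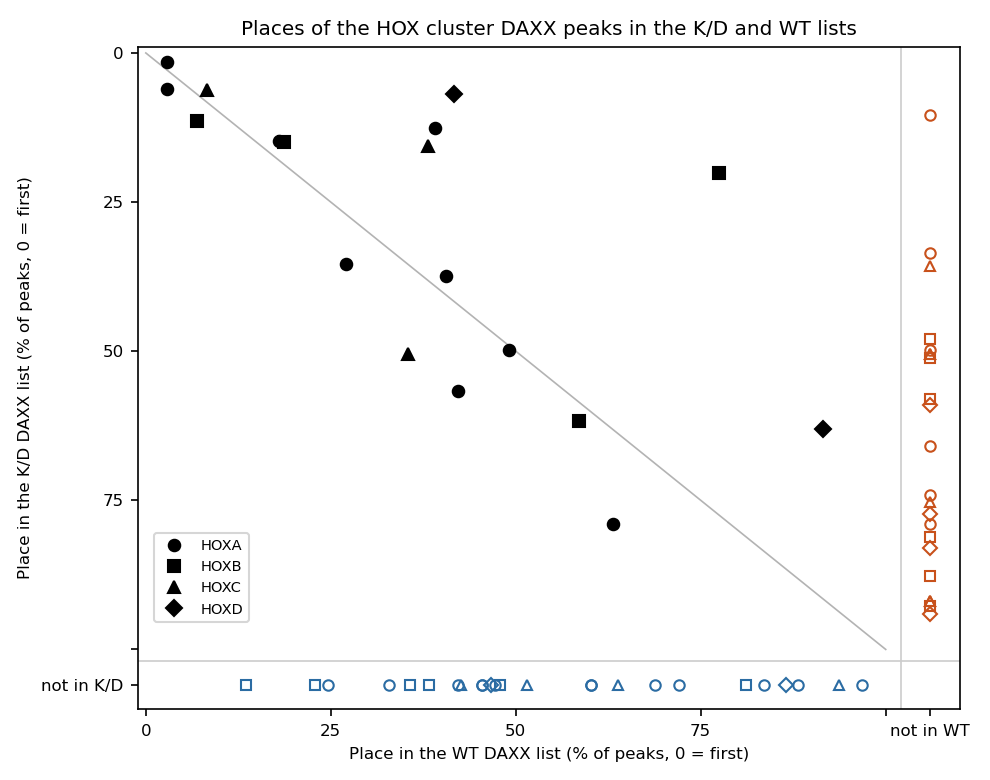
Place of each HOX cluster DAXX peak in the K/D list (y axis, % of peaks, first at the top) against its place in the WT list (x axis, %), with peaks called in 1 line alone in the outer strips. The 18 shared peaks include 10 placed earlier in K/D, above the diagonal, and the 22 K/D-only peaks sit mostly in the later part of their list.

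H3(Lys4) regions covered less of the clusters in K/D cells than in WT cells, and HOXA had the widest gap. The regions covered 89.5 kb of the windows in K/D (10.8%), against 142.5 kb in WT (17.2%), a K/D to WT ratio of 0.628. The ratio over the whole genome was 0.825, with 2.25% covered in K/D and 2.73% in WT. Over the HOXA window K/D regions covered 39.7 kb, against 74.3 kb in WT, a ratio of 0.534. The ratio was 0.787 for HOXB, 0.690 for HOXC and 0.720 for HOXD, and 0.731 for those 3 together. Between the outermost HOXA genes 25.8% of the sequence was covered in K/D, against 54.1% in WT. The median region width in the clusters was 792 bp in K/D and 1062 bp in WT (whole lists 644 and 756 bp). The authors joined neighbouring windows into regions, so a region that breaks up raises the count of regions while it lowers the covered length.

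**Figure D4:**
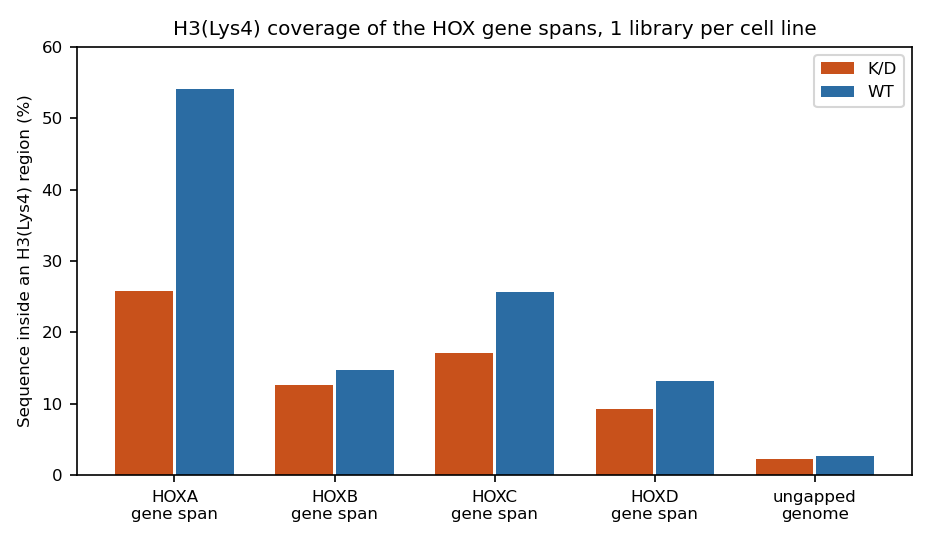
Share of sequence inside an H3(Lys4) region (y axis, %) between the outermost genes of each HOX cluster and over the ungapped genome, K/D bars left of WT bars. HOXA is at 25.8% in K/D and 54.1% in WT, and the genome at 2.25% and 2.73%.

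The widest of all 72064 WT H3(Lys4) regions lay in HOXA. It ran from chr7:27205295 to 27223061, 17767 bp from HOXA9 across HOXA10 to HOXA11, and held 4 WT DAXX peaks and the WT DNMT1 peak. In K/D, 5 regions of between 923 and 2574 bp covered 48.5% of it. The next, chr7:27225495-27237523, from HOXA11 to the HOXA13 gene, was 12029 bp wide, width rank 6 in the list, and 29.0% covered in K/D. Another, of 7499 bp, over HOTTIP was 74.2% covered. WT regions wider than 5 kb were in general covered in part, with a median of 46.2% over the 545 of the whole list and 48.5% over the 5 of the HOX clusters. No K/D region of the clusters was wider than 5 kb, against 120 in the whole K/D list. The widest K/D region of the clusters, 4196 bp, covered the TSS of HOXC8, a gene of the thoracic level, whose WT region was 3884 bp wide. The next widest in K/D were 3756 bp over HOTTIP and 3693 bp beyond HOXA11. In HOXB the widest were 1668 bp between HOXB4 and HOXB5 in K/D and 2782 bp over the HOXB6 TSS in WT. In WT HOXC the widest was 4948 bp from the HOXC10 gene into the HOXC6 gene, 67.5% covered in K/D, and the next, 4163 bp at HOXC13, had no K/D region on it. In HOXD they were 2118 bp between HOXD13 and HOXD12 in K/D and 2939 bp overlapping the HOXD3 gene in WT.

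Of the 79 K/D regions of the clusters, 53 touched a WT region (67.1%, 55.6 to 77.2%), against 48.2% of the whole K/D list, and 27 of the 31 in HOXA did. Of the 70 WT regions, 39 touched a K/D region (55.7%, 43.3 to 67.6%), against 45.8%. The clusters' regions stood early in their lists, and the whole lists' shares in the same bins averaged 56.5% for K/D and 57.5% for WT. Both intervals include these averages. WT regions covered 35.9% of the HOXA window, against 2.73% of the genome, and the part of this coverage in the HOXA count was not tested. A region lay within 10 kb of 33 of the 38 genes in K/D, against 70.4% of all genes, and of 35 in WT, against 71.3%. Fewer start sites were covered. A TSS of 7 genes was inside a K/D region, against 18.9% of all genes, and of 14 inside a WT region, against 29.2%. The TSS of HOXA10, HOXB9, HOXC4, HOXC5, HOXC8 and HOXD1 was covered in both lines and that of HOXC11 in K/D alone. A TSS was covered in WT alone for 8 genes, among them HOXA3, HOXA6, HOXB6, HOXC6 and HOXD8. Among these, the WT regions were 6420 bp at HOXA3 and HOXA6 and 3502 bp at HOXC6.

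DAXX peaks were set against the H3(Lys4) regions of the same cells, and the WT share over the 4 clusters lay above that of the WT list. On a K/D region were 13 of the 40 K/D peaks (32.5%, 18.6 to 49.1%), against 28.7% of the K/D list. On a WT region were 27 of the 43 WT peaks (62.8%, 46.7 to 77.0%), against 37.4% of the WT list. By cluster it was 5 of 15 in K/D and 17 of 22 in WT for HOXA, and 2 of 10 and 3 of 10 for HOXB. For HOXC it was 4 of 9 and 5 of 7, and for HOXD 2 of 6 and 2 of 4. The WT share of HOXB was not above that of the list, and its interval (6.67 to 65.3%) includes the list's share. Of the 27 WT peaks on a region, 17 came from HOXA. Of the 25 peaks called in WT alone, 16 were on a WT H3(Lys4) region, and 9 of these had no K/D region on them, 8 of them in HOXA. Of the 22 called in K/D alone, 5 were on a K/D region. Among the 18 shared peaks, 11 were on a WT region in WT and 8 on a K/D region in K/D. Of all 27 WT peaks on a WT region, 13 had no K/D region on them. The whole lists' shares for peaks called in 1 line alone were not computed. The wider regions of WT HOXA hold more peaks, and that part was not tested. Read from the regions, 11 of 79 K/D regions held a K/D DAXX peak, against 16.2% of the list, and 18 of 70 WT regions held a WT DAXX peak, against 27.9%.

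The sequence under the HOX peaks differed from that of the whole lists. Both strands of the 201 bp around each peak centre were searched for motifs. The AP-1 site TGACTCA, bound by FOS and JUN dimers, was in 4 of 40 K/D peaks (10.0%, 2.79 to 23.7%), against 35.4% of the K/D list, and in 6 of 43 WT peaks (14.0%, 5.30 to 27.9%), against 36.2% of the WT list. The posterior HOX motifs TTTATGG and TTTACGA, the letters preferred by HOX proteins of groups 9 to 13 and by CDX proteins, were in 11 of 40 K/D peaks (27.5%, 14.6 to 43.9%), against 5.63% of the K/D list, and in 6 of 43 WT peaks (14.0%, 5.30 to 27.9%), against 4.59%. They were in 4.69% of the 4116 tiles of 201 bp that fill the HOX windows, and the AP-1 site in 2.21% of them. At 2 kb to either side of the K/D peaks the posterior HOX motifs were in 3 of 80 windows.

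Most K/D peaks with a posterior HOX motif were called in K/D alone. Of the 22, 8 held a posterior HOX motif (36.4%), against 6.91% of the 13975 K/D-only peaks of the whole list, and 0 held an AP-1 site, which allows a share of up to 3 in 22, against 25.3%. Among the 18 shared K/D peaks the counts were 3 and 4. Of the 25 WT-only peaks 3 held a posterior HOX motif, against 4.27% of the list's WT-only peaks. The 8 peaks lay at HOXA5, HOXC5, HOXC9 and HOXD4, at HOXB3 (2 peaks) and beyond HOXB1 (2 peaks). The HOXD4 sequence printed above holds 4 matches, the HOXC5 sequence 3 and those of HOXA5 and HOXC9 1 each. A match is a description of the letters and does not show binding.

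**Figure D5:**
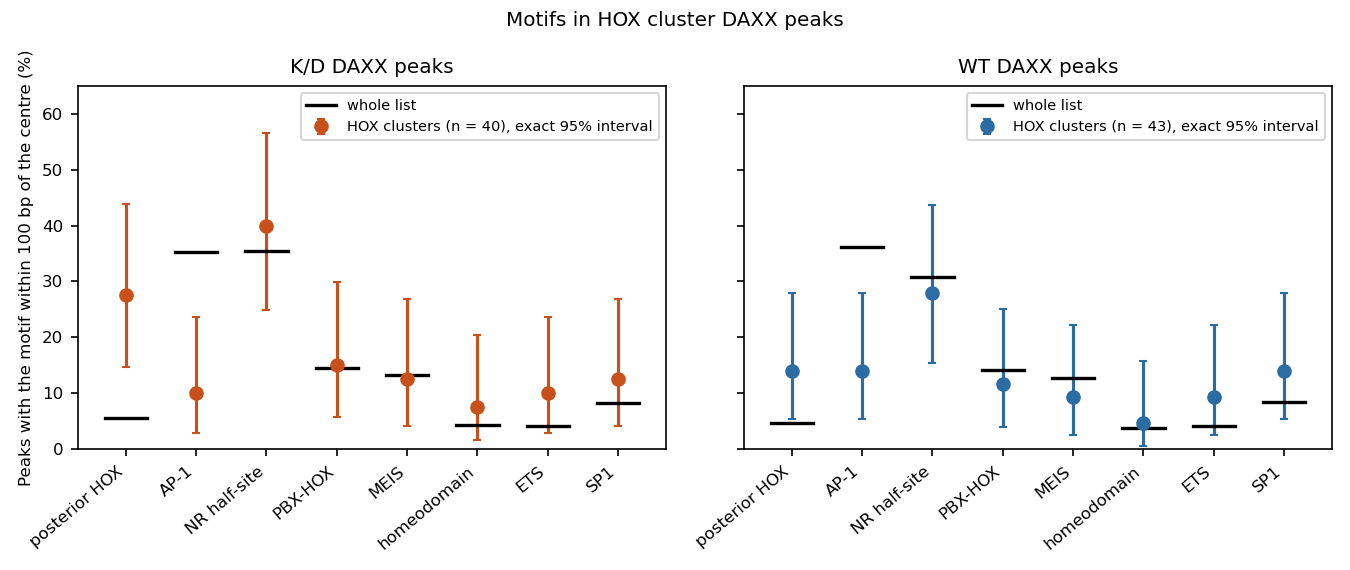
Share of HOX cluster DAXX peaks with each motif within 100 bp of the centre (points, %, with exact 95% intervals) beside the share in the whole list (black lines), K/D left and WT right. The posterior HOX point is at 27.5% in K/D and 14.0% in WT, above the list's line, and the AP-1 point is below it in both.

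The other motifs gave intervals that include the list's share in both cell lines. The half-site AGGTCA was in 16 of 40 K/D and 12 of 43 WT peaks (35.5% and 30.9% of the lists), the PBX-HOX site TGATNNAT in 6 and 5 (14.5% and 14.2%), the MEIS site CTGTCA in 5 and 4 (13.2% and 12.8%), TAATTA in 3 and 2 (4.34% and 3.78%), the ETS site CCGGAA in 4 and 4 (4.17% and 4.18%) and the SP1 site GGGCGG in 5 and 6 (8.18% and 8.50%). The CTCF consensus and the direct repeat retinoic acid element were in 0 peaks of either line and in 0.343% and 0.0397% of the K/D list, against 0.288% and 0.0502% of the WT list. Median GC content was 48.5% in K/D HOX peaks (list 44.3%) and 49.3% in WT HOX peaks (list 44.3%), and that of the tiles was 47.8%. The ratio of observed to expected CpG was 0.570 in K/D (list 0.183) and 0.399 in WT (list 0.182), against 0.261 in the tiles.

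Genes that work with HOX proteins or control them were counted in the same way. Of 9 TALE cofactors, the PBX, MEIS and PKNOX homeodomain partners of HOX proteins, 6 had a K/D and 4 a WT DAXX peak within 10 kb. That of PBX4 came first in the WT list. Of 17 Trithorax and Polycomb regulators it was 10 in K/D and 8 in WT, and the first in the K/D list was that of KDM6B, an H3 lysine 27 demethylase (2631 bp at 3.83% in K/D, against 464 bp at 58.6% in WT). The first in the WT list was that of RING1, a Polycomb ubiquitin ligase (2875 bp at 7.95% in K/D, against 2933 bp at 3.67% in WT). Of 15 ParaHox and linked homeobox genes it was 4 in K/D and 6 in WT, and of the 6 retinoic acid and retinoid X receptors, which switch on anterior HOX genes, 5 in each. The shares of all genes are the 41.8% and 51.2% given for K/D and WT. RARG was the 1 gene of these lists with a DNMT1 peak within 10 kb, 2168 bp from a TSS in K/D, against 2230 bp in WT.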

How the data were processed

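ChIP-Seq peak lists of 6 immunoprecipitations (DAXX, DNMT1 and H3(Lys4) in K/D and WT PC3 cells, 1 library each) were used, and groups were taken from sample titles. Per the study's methods and processing notes, the authors used CASAVA 1.8.2 for base calls, aligned to hg19 by Bowtie2 2.1.0 and called peaks with HOMER 4.6 against the matched input, 4-fold over input at a Poisson p of 0.0001 and 4-fold over the local 10 kb, with an FDR of 0.001 for DAXX and DNMT1. Fixed limits mean that a weaker library loses peaks near them. The deposited score column held 1 value for all peaks, so peaks were ordered by their place in the deposited list. On the chromosomes of the clusters this place follows HOMER's peak numbers less closely for H3(Lys4) and DNMT1 than for DAXX. Start and end positions were the values used, and 113 peaks on unplaced or unlocalised sequences were dropped.

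Genes and start sites came from GENCODE release 44 mapped to hg19. Windows were the 4 gene spans with 50 kb flanks. Peaks were shared at 1 bp or more in common, a gene was near a peak centre within 10 kb of a TSS, and motifs were searched 100 bp to either side of the centre. Shares have exact binomial (Clopper-Pearson) and counts exact Poisson 95% intervals, and a count of 0 was read as up to 3 counts. Named genes were those with a DAXX or DNMT1 peak inside or within 10 kb, and named peaks were all of a list with at most 10 in a cluster, otherwise the first 5 of each class, with the 3 widest H3(Lys4) regions per cluster, the widest of which are described. A few later HOXA peaks close to start sites and the peaks whose sequences are printed were chosen after their values were seen. The members and lists were chosen with earlier results of these data known. Alternatives were other flanks, overlap rules, distances, motif windows and list lengths. Overlap and motif code was tested on simulated data. Some items are not reported here. Python 3.11.15, numpy 2.4.6, scipy 1.17.1 and matplotlib 3.10.9 were used.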

Additional observations from a re-analysis of the deposited data

How the results depend on the processing

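No paired analysis was possible because each group has 1 library. Of 88 alternative values, 69 stayed within the interval of the value reported or within 1.5 times of it, among them those of the shared DAXX peaks, of DAXX peaks on H3(Lys4) regions and of both motif shares. The motif shares, inside wide intervals, still varied. Within 50 bp of the centre, the posterior HOX motif was in 20.0% of K/D and 6.98% of WT peaks and AP-1 in 5% of K/D and 11.6% of WT peaks, and within 200 bp AP-1 was in 20.9% of WT peaks. The whole lists' shares are given for 100 bp only, so they cannot be set against the shares at 50 and 200 bp. Without flanks the posterior HOX motif was in 31.0% of K/D and 22.2% of WT peaks and AP-1 in 6.90% and 7.41%. With the first 50% of each list, DAXX peaks numbered 21.8 per Mb in K/D and 32.6 per Mb in WT, WT DNMT1 peaks 1.21 per Mb, and genes near a K/D DAXX peak 19. This cut also lowers the values of the whole lists and of all genes. Those were not computed for it, so the full lists' values are no comparison here. With a flank of 25 kb WT DNMT1 peaks numbered 1.59 per Mb. Without flanks H3(Lys4) regions covered 16.4% in K/D and 27.2% in WT. Shared H3(Lys4) regions depended on the overlap rule. With centres within 200 bp, 12.7% of K/D and 14.3% of WT regions were shared (whole lists 17.3% each), and with 50% of each region in common 21.5% and 24.3% (whole lists 23.03% and 23.06%). Within 5 kb of a TSS, 17 HOX genes had a K/D and 16 a WT DAXX peak, and 1 a WT DNMT1 peak. Within 2 kb the counts were 8 for K/D and 10 for WT DAXX, 1 for WT DNMT1, and 21 for K/D and 23 for WT H3(Lys4). The shares of all protein-coding genes within 5 kb and 2 kb were not computed, so these counts show no excess. With the lists cut to the same number of peaks no WT DNMT1 peak of the clusters remained, so that share has no value there. Counts of at most 43 DAXX peaks and 79 H3(Lys4) regions leave wide intervals, and 1 library a group leaves cell line, library and depth inseparable.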
